A study of Mus musculus with 44 samples.

Results

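Polycomb occupancy was described at the loci of 7 genes that encode regulators of blood cell lineages: Meis1, Cebpa, Sfpi1, Ebf1, Pax5, Gata3 and Id2. The members were all rows of 3 deposited peak lists that touched 1 of 7 windows in mouse genome build mm9, which run from 100 to 490 kb and add up to 1.46 Mb, or 0.0566% of the 2581 Mb spanned by the lists. The PCGF1 list gave 7 of its 2569 peaks, the RING1B list 35 of its 24987, and the H3K27me3 list 85 of its 135391 regions, which makes 127 rows of 162947. Within the windows position alone chose the rows; the windows themselves were picked with earlier results of these data known.

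The study carried out chromatin immunoprecipitation and sequencing in 44 libraries of mouse bone marrow cells with and without PCGF1, and 6 of these libraries stand behind the lists used here. All 6 came from IdHP cells, cultured haematopoietic progenitors of strain B6CBAF1/J at passage 15 to 18, grown on TSt4 stroma cells in medium with IL7, SCF and Fl3L. PCGF1 was mapped through its FLAG tag in 2 libraries of Pcgf1 -/- cells that carried FLAG-PCGF1 in place of their own protein, and the promoter driving it is not named in the labels. RING1B and H3K27me3 were mapped in 2 libraries each of Pcgf1 fl/fl cells, which keep their own PCGF1. A PCGF1 peak and a RING1B peak on the same bases therefore come from different cells. Each list gives 1 value per peak for its pair of libraries, so no value has a replicate error, no test between groups was possible and the read depth is unknown. The lists hold no RNA levels, so the labelled cell type could not be checked against its marker genes, and whether a gene was expressed is not known from them. The other 38 libraries, including a FLAG control in Pcgf1 -/- + NC cells and a RING1B library of Ring1A/B -/- cells, were not analysed here.

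Polycomb repressive complexes keep developmental genes silent. In variant complexes PCGF1 joins RING1B, the ubiquitin ligase that modifies histone H2A, and the partner KDM2B brings the complex to unmethylated CG-rich DNA, while a separate complex writes H3K27me3, trimethylated lysine 27 of histone H3. In blood progenitors such complexes are known for holding lineage-specific transcription factors in check until a cell commits to a lineage. The 7 genes stand for several of these choices: Meis1 encodes a homeodomain cofactor of HOX proteins in stem cells and progenitors, Cebpa and Sfpi1 encode C/EBPalpha and PU.1, which drive myeloid development, Ebf1 and Pax5 establish and maintain B cell identity, Gata3 directs T cells and innate lymphoid cells, and Id2 encodes an inhibitor of E proteins that favours innate lymphoid fates.

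Because the PCGF1 complex is known for CG-rich DNA, the promoters of the genes were compared by their number of CG dinucleotides (motif CG, which reads the same on both strands). RefSeq promoter sequences of build GRCm38.p6, each of 300 bases from 250 before to 50 after the annotated start, were matched by symbol for 6 of the 7 genes. They are shown for Id2, whose PCGF1 peaks had the highest fold, for Pax5, which had the fewest RING1B bases among the matched genes whose window held no PCGF1 peak, and for Cebpa, added after its values were seen because its PCGF1 peak stood alone. Sequences run 5′ to 3′ on the strand of the gene, and capitals mark each CG.
Id2: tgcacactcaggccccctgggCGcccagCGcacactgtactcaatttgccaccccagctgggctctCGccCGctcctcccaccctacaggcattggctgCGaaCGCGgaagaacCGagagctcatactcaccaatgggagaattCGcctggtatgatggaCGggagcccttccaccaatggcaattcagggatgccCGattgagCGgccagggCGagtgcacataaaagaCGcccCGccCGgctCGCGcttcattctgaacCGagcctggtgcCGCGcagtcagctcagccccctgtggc
Pax5: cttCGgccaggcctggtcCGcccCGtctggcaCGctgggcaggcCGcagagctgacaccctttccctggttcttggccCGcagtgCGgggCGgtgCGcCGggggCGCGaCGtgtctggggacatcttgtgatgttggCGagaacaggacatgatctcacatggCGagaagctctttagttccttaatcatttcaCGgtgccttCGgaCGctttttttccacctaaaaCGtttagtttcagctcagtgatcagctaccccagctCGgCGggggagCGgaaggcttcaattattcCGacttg
Cebpa: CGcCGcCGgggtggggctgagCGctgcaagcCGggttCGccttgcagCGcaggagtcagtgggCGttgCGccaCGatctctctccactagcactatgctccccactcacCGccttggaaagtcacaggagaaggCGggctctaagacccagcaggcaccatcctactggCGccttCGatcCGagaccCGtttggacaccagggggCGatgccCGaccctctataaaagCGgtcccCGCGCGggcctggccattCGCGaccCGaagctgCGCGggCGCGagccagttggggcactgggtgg

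The Cebpa promoter held 29 CG dinucleotides, a number that 12.9% of all 32851 promoters of the table reached. Pax5 had 23 (reached by 21.5%), Gata3 22 (23.1%) and Id2 21 (24.8%), against a median of 7 over the table. Meis1 had 15 (34.6%), and the 2 annotated Ebf1 promoters had 9 (45.8%) and 17 (31.4%). Genes whose window held PCGF1 (Cebpa, Id2, Meis1 and Ebf1) thus ranged from 9 to 29, and the 2 genes of the table without it, Gata3 and Pax5, lay inside that range. Among 20 other blood regulators, such as Runx1 and Irf8, 17 had an entry, and the highest count per gene ran from 4 to 52 with a median of 23. Counted over single promoters, as for the table median of 7, these 17 genes had a median of 16.5 (26 promoters, 2 to 52). Their loci have no mm9 position in the lists, so their occupancy was not analysed here. The peak lists and the promoter table belong to different builds, so no peak was placed on a promoter, exon or intron. Peaks are given by window and mm9 position. Neighbouring genes, such as Slc39a13 and Mybpc3 beside Sfpi1, may lie partly inside a window. A peak in a window was therefore not assigned to the gene that names it.

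The windows fell into different patterns of occupancy. PCGF1 was listed in 4 of the 7 (Id2, Meis1, Cebpa and Ebf1), RING1B in 6 (all but Cebpa) and H3K27me3 in 7. Of consecutive 100 kb bins along the chromosomes, 6.55% held a PCGF1 peak, 33.7% a RING1B peak and 95.2% an H3K27me3 region; of bins as wide as the longest window, 490 kb, the shares were 24.5% for PCGF1 and 61% for RING1B. A single site with PCGF1, RING1B and H3K27me3 on the same bases was present in 2 windows, Id2 and Meis1, where 2.56% of 100 kb bins and 11% of 490 kb bins held one. Given how the windows were picked, these counts are a description. The map of the windows shows the 7 layouts side by side.

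**Figure D1:**
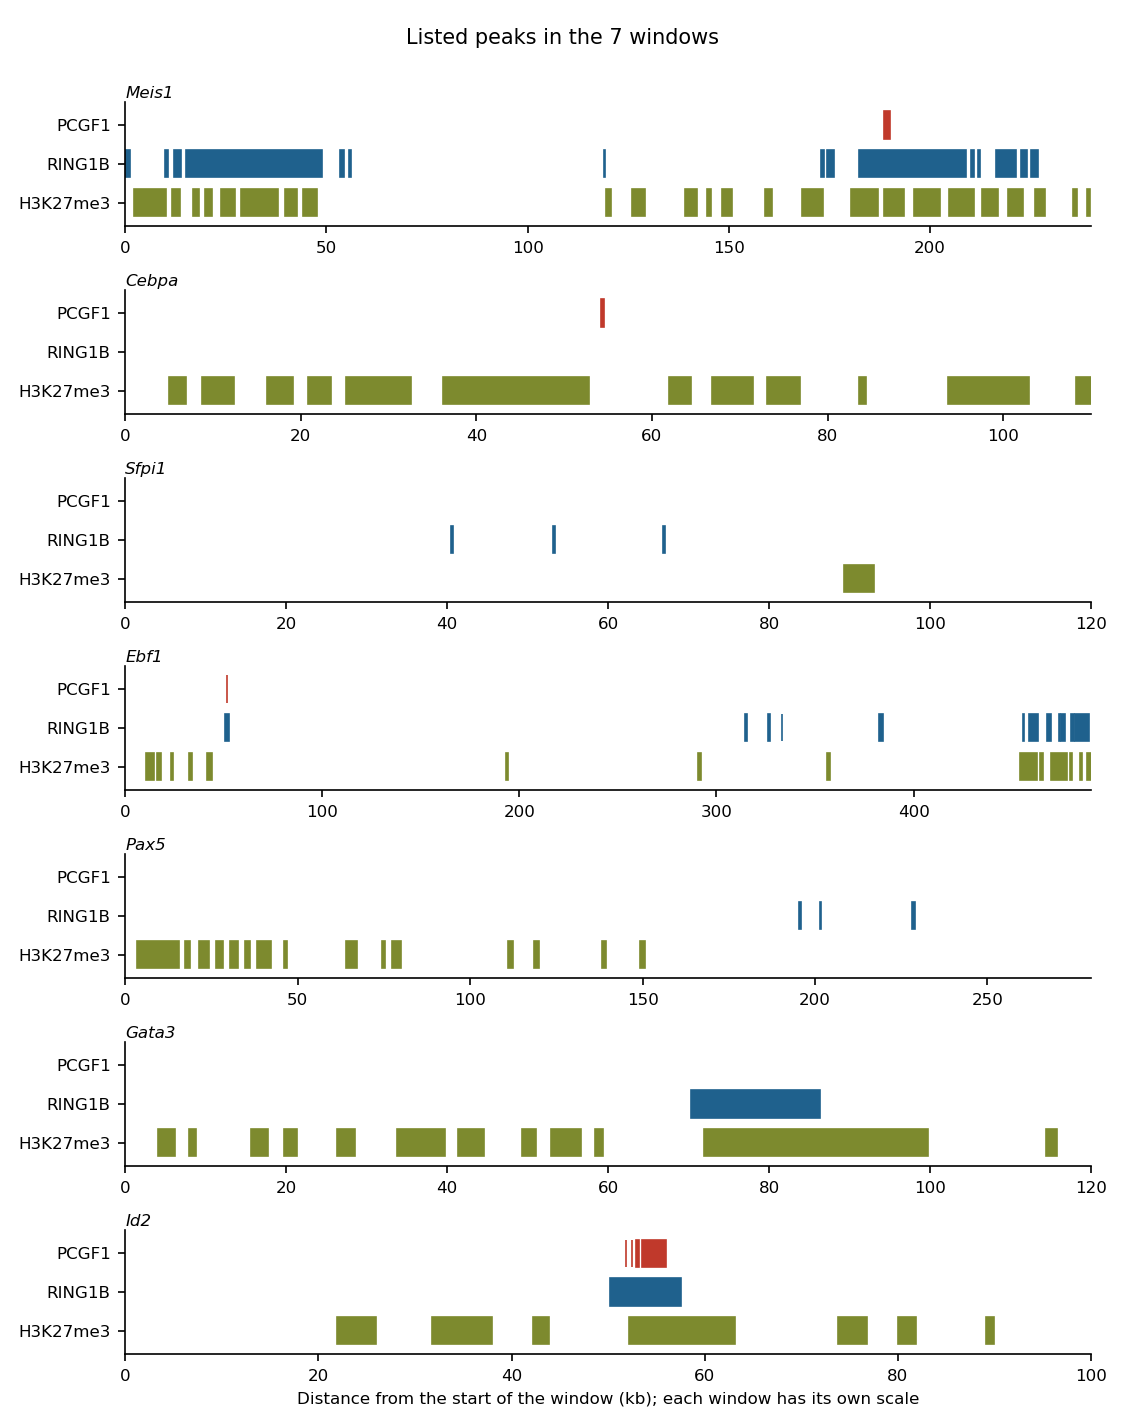
Extent of the listed PCGF1 peaks (red), RING1B peaks (blue) and H3K27me3 regions (green) in the 7 windows, in kb from the start of each window; bars are outlined so that the shortest peaks stay visible, and each panel has its own scale. Id2 and Meis1 hold all 3 on 1 site, Gata3 a RING1B peak of 15990 bp without PCGF1, and Cebpa a PCGF1 peak without RING1B. At Pax5 and Sfpi1 every RING1B peak lies off H3K27me3. Of the whole RING1B list, 44.3% of peaks lie on H3K27me3 and 5.85% on PCGF1.

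RING1B covered 8.73% of the bases of the windows, against 1.54% of the whole span, and H3K27me3 covered 21.0% against 18.7%. Of the 127.5 kb under RING1B, Meis1 gave 77.4 kb, Ebf1 23.8 kb, Gata3 16.0 kb and Id2 7.37 kb. As a share of each window the order was Meis1 (32.3%), Gata3 (13.3%), Id2 (7.37%) and Ebf1 (4.86%). Pax5 (0.741%) and Sfpi1 (0.727%) lay below the share of the span, and Cebpa had none. Without the Meis1 window the share was 4.11%, a value added after seeing the data. H3K27me3 gave another order: Cebpa had the highest share at 52.7%, followed by Gata3 (44.9%), Meis1 (36.1%) and Id2 (28.7%), while Pax5 (14.0%), Ebf1 (7.502%) and Sfpi1 (3.11%) lay below the share of the span. Cebpa thus had the highest share under H3K27me3 and no RING1B peak, and Meis1 had the highest share under RING1B. In bases, Meis1 had more H3K27me3 than Cebpa (86.5 kb against 57.9 kb), in a longer window.

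**Figure D2:**
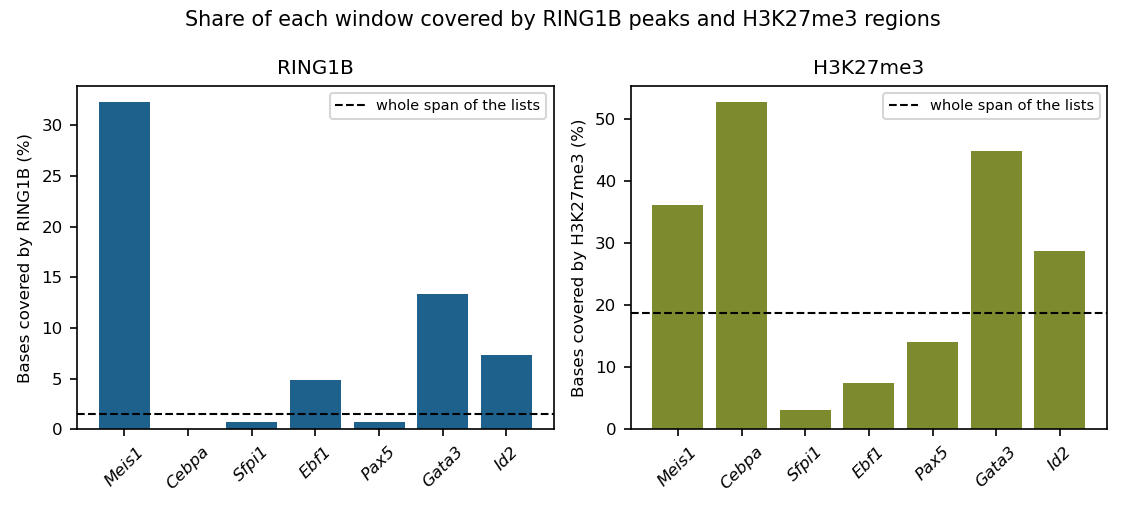
Bars give the percentage of bases in each window covered by RING1B peaks (left) and by H3K27me3 regions (right), and dashed lines give the same over the whole span of the lists. RING1B cover is highest at Meis1 (32.3%) and absent at Cebpa, where H3K27me3 cover is highest (52.7%).

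The Meis1 window (chr11:18730000-18970000) held 15 of the 35 RING1B peaks and 24 of the 85 H3K27me3 regions. Its RING1B signal was gathered in a pair of very wide peaks. The first, at chr11:18745000-18778849, was 33850 bp wide with a deposited fold (the ratio over the peak caller's background) of 10.5, higher than 99.9% of the RING1B list. The second, at chr11:18912250-18938961, was 26712 bp wide with a fold of 8.26, higher than 99.7% of the list. Both also stood high among RING1B peaks wider than 10 kb, where their folds exceeded those of 96.6% and 92.0%. Between the 2 lay 3 short peaks next to the first (1012 bp, fold 4.14; 572 bp, fold 3.44) or alone (280 bp, fold 3.43), and 2 that preceded the second (603 and 1784 bp, folds 2.96 and 3.11). The longest stretches without RING1B in the window were 62.7 and 53.8 kb, on either side of the lone 280 bp peak.

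The 2 wide Meis1 peaks differed in PCGF1. The second held the only PCGF1 peak of the window, at chr11:18918677-18920163, which was 1487 bp wide (wider than 95.6% of the PCGF1 list) with a fold of 5.14 (higher than 81.2%). It covered 5.57% of the RING1B peak and began 6427 bp from its left end, so most of that RING1B peak had no listed PCGF1. The first, which had the higher RING1B fold, held none, and the nearest PCGF1 peak was 139827 bp away. Of RING1B peaks of any width in the list, 5.85% held PCGF1. The share among peaks as wide as these 2 is not given here.

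H3K27me3 ran through both wide Meis1 peaks as a series of separate regions. The first RING1B peak held 6 of them, which covered 65.5% of it, with heights (the highest signal in a region, on a scale the file does not state) of 74.7, 89.1, 98.2, 115.1, 193.1 and 171.1 from left to right. The 2 tallest lay at its right end, and none reached past either end of the RING1B peak. The second held 4 regions, which covered 77.0% of it, with heights of 99.0, 103.3, 139.5 and 81.1. Here the outer regions ran past the RING1B peak, by 1789 bp on the left and 2009 bp on the right. The tallest Meis1 region, of height 193.1 at chr11:18769680-18772580 as listed, was taller than 99.5% of the H3K27me3 list, and the widest, of 9180 bp, had a height of 115.1 and lay in the same RING1B peak. A stretch of 71.9 kb without H3K27me3 began inside the right end of the first RING1B peak and held 3 short RING1B peaks beyond it.

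The Id2 window (chr12:25730000-25830000) had PCGF1, RING1B and H3K27me3 together in 1 place. Its single RING1B peak lay at chr12:25780204-25787575 and was 7372 bp wide with a fold of 7.72, higher than 99.6% of the list and than 98.0% of RING1B peaks of 5 to 10 kb. Inside it lay 4 of the 7 PCGF1 peaks of the windows. From left to right they were 49, 58, 315 and 2445 bp wide with folds of 4.44, 5.06, 5.27 and 5.64, so width and fold both went up towards the right. Together they covered 38.9% of the RING1B peak, within a stretch of 4157 bp that ended about as far from its right end (1608 bp) as it began from its left end (1607 bp). The widest, at chr12:25783523-25785967, had a higher fold than 95.9% of the PCGF1 list and was wider than 98.7% of it, while the narrowest was as short as any peak in the list and had a fold above 11.2% of it.

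H3K27me3 at Id2 was shifted to the right of RING1B. The region at chr12:25782210-25793190 as listed, 10980 bp wide and of height 151.5 (taller than 98.4% of the list), covered 72.8% of the RING1B peak and ran 5615 bp past its right end. The leftmost PCGF1 peak lay 351 bp outside that region, and the other 3 lay wholly within it. The other 6 regions of the window had heights from 62.2 to 99.4 and did not touch RING1B.

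The Gata3 window (chr2:9730000-9850000) carried a wide Polycomb site without listed PCGF1. Its only RING1B peak, at chr2:9800314-9816303, was 15990 bp wide with a fold of 4.14, higher than 89.9% of the list. Among RING1B peaks wider than 10 kb that fold was modest, above 39.9% of them. A single H3K27me3 region, at chr2:9801910-9829690 as listed, covered 90.0% of the RING1B peak and ran 13387 bp past its right end. It was 27780 bp wide and had a height of 219, the tallest in any of the 7 windows and taller than 99.7% of the list. The other 11 regions ranged in height from 41.8 to 76.4, on both sides of the list median of 68.5, so 1 region stood far above the rest. The nearest PCGF1 peak was 478290 bp from the RING1B peak. Of the whole RING1B list, 5.85% of peaks held PCGF1, and the share among wide peaks alone is not given here.

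**Figure D3:**
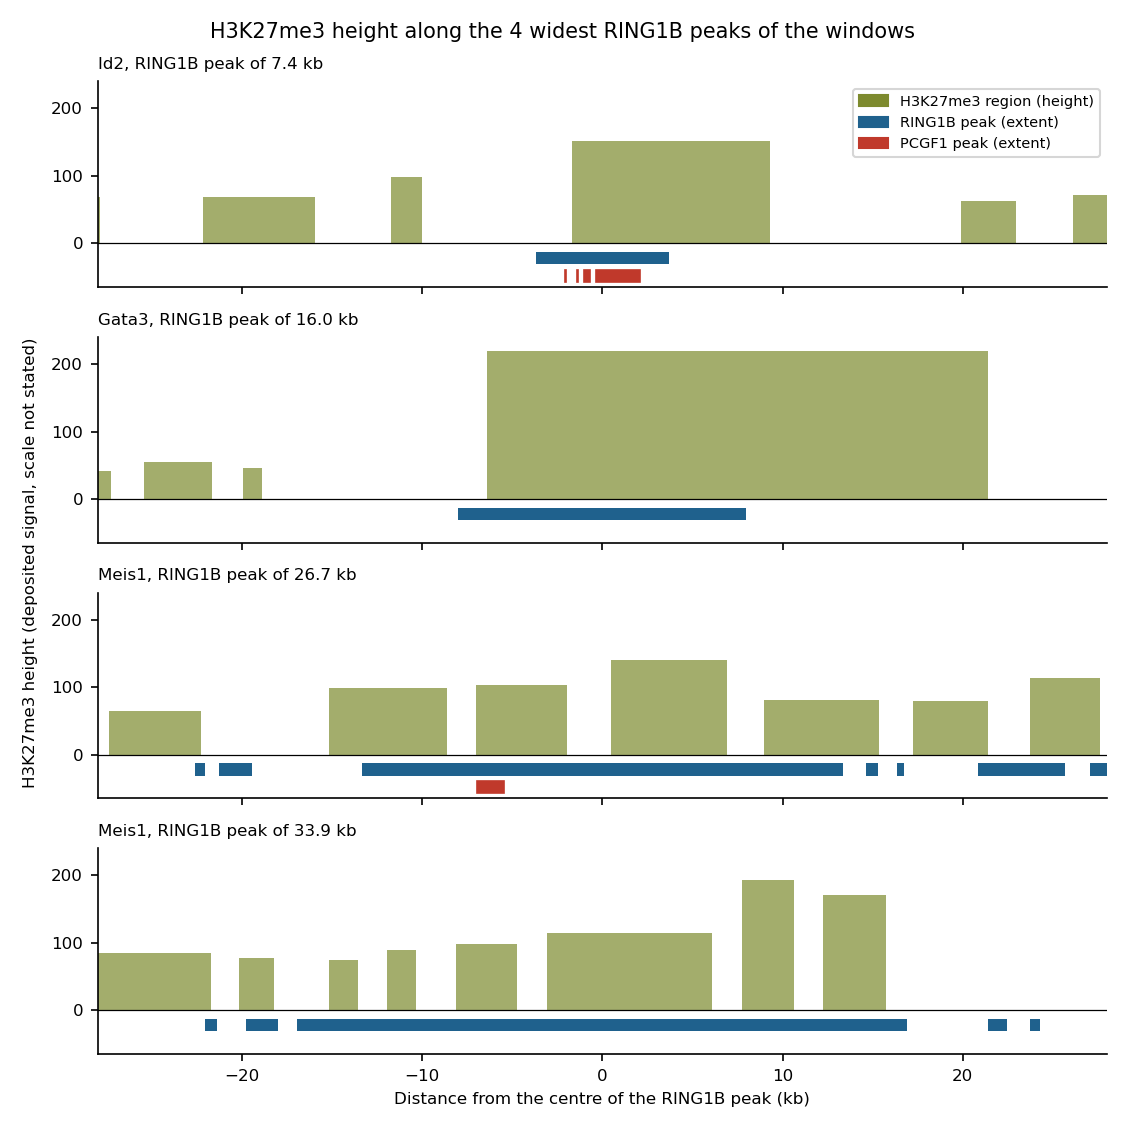
Height of the H3K27me3 regions (green bars; the width is the extent of the region and the height its single deposited value) around the 4 widest RING1B peaks of the windows (blue, extent only), with PCGF1 peaks in red, in kb from the centre of each RING1B peak. One region spans most of the RING1B peak at Id2 and Gata3, while 4 and 6 separate regions lie on the 2 wide peaks at Meis1.

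The Cebpa window (chr7:35850000-35960000) showed the reverse of Gata3, with PCGF1 and no RING1B. Its PCGF1 peak, at chr7:35904146-35904501, was 356 bp wide with a fold of 4.88 (higher than 58.7% of the list) and a -log10 q of 2.01. It was the only 1 of the 7 PCGF1 peaks off RING1B, and the nearest RING1B peak was 61810 bp away, outside the window. It was also off H3K27me3, in a gap of 9.05 kb between regions, 1295 bp from the region on its left and 7399 bp from that on its right. Of the PCGF1 list, 75.3% of peaks lay on RING1B and 50.4% on H3K27me3. A single peak is too few to set the window apart from that background. The H3K27me3 region to the left of the PCGF1 peak was the widest (16620 bp) and tallest (89.7, above 80.1% of the list) of the 12 regions in the window. The heights of the 12 ran from 53.8 to 89.7 with a median of 70.3, close to the median of 68.5 over the list, while their median width was 3695 bp against 1840 bp over the list.

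The Sfpi1 window (chr2:90870000-90990000) had no PCGF1 and few covered bases. It held 3 short RING1B peaks, 332, 220 and 320 bp wide, with folds of 2.72, 5.53 and 3.53. The middle one, at chr2:90923141-90923360, stood out for its width: its fold was higher than 99.4% of RING1B peaks in the narrowest width class (up to 0.5 kb), and its -log10 q was 9.15. The first, at chr2:90910448-90910779, was among the weakest of the list, with a fold above 1.79% of it. None of the 3 lay on H3K27me3, as did 44.3% of the RING1B list. All stood in a gap of 106.7 kb between regions that reached past the left edge of the window. The single H3K27me3 region, at chr2:90959330-90963060 as listed, had a height of 84.8 and lay 22239 bp from the nearest RING1B peak. No PCGF1 peak was nearer than 490009 bp to any of these RING1B peaks.

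The Ebf1 window (chr11:44380000-44870000), the longest, had RING1B both on and off H3K27me3. On its left, a RING1B peak at chr11:44430495-44432764 (2270 bp, fold 3.75) held a PCGF1 peak at chr11:44431730-44431870 (141 bp, fold 4.74, above 43.7% of the list). No H3K27me3 lay within 6504 bp of this RING1B peak, and the gap in H3K27me3 around it was 149.15 kb. In the middle, 4 RING1B peaks lay off H3K27me3 and off PCGF1. The 2 with the highest folds of the window were chr11:44694328-44695593 (1266 bp, fold 6.65, -log10 q 14.2) and chr11:44762671-44764365 (1695 bp, fold 5.41, -log10 q 10.3). Their folds were higher than 99.3% and 97.8% of RING1B peaks of 1 to 2 kb, and the nearest H3K27me3 regions were 22417 and 25070 bp away. The other 2, of 760 and 185 bp, had folds of 3.77 and 3.35.

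At the right end of the Ebf1 window RING1B and H3K27me3 came together again. There 7 RING1B peaks of 246 to 6872 bp followed each other at gaps of 0.763 to 4.80 kb, and 6 of them touched H3K27me3, while the other was 20 bp away from a region. Their folds, from 2.997 to 3.87, were lower than those of the 2 strongest peaks in the middle and spanned those of the other 2. The widest, at chr11:44862117-44868988 (6872 bp, fold 3.87), had 32.1% of its bases under H3K27me3. The tallest and widest region of the window, at chr11:44867880-44885270 as listed (17390 bp, height 139.1), began inside that peak and ran past the edge of the window.

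In the Pax5 window (chr4:44490000-44770000) RING1B and H3K27me3 did not overlap. Over the lists, 44.3% of RING1B peaks lay on H3K27me3 and 5.57% of H3K27me3 regions met RING1B. The 3 RING1B peaks of the window are too few to set it apart from that background. These 3 peaks were 773, 359 and 942 bp wide with folds of 3.46, 3.49 and 3.70. The highest, at chr4:44718165-44719106, was also the widest. Each fold lay above the median of its width class, higher than 76.6%, 80.5% and 85.4% of RING1B peaks of like width. The 15 H3K27me3 regions all lay to the left of these peaks, the nearest at 44513 bp, and the last 129.3 kb of the window had none. The widest, at chr4:44493380-44505520 as listed, spanned 12140 bp with a height of 85.7, and the tallest, at chr4:44520360-44522760, had a height of 113.4. The nearest PCGF1 peak was 437781 bp from a RING1B peak of the window.

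Across the windows, 6 of the 7 PCGF1 peaks (85.7%, exact 95% binomial interval 42.1 to 99.6) lay on RING1B, against 75.3% of the PCGF1 list, and 4 of 7 (57.1%, 18.4 to 90.1) lay on H3K27me3, against 50.4%. Both shares were near those of the list and rested on the 4 peaks inside 1 RING1B peak at Id2: without that window, a setting added after seeing the data, 2 of 3 lay on RING1B and 1 of 3 (33.3%) on H3K27me3. Intervals cover counting error only, and neighbouring peaks are not independent. The median PCGF1 fold was 5.06, against 4.79 over the list, with 5 of 7 peaks above that median. No PCGF1 peak of the windows reached a -log10 q of 5, as did 64 of the 2569 in the list; the 7 values ran from 1.53 to 3.42 with a median of 2.24, against a median of 1.97 over the list.

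RING1B peaks of the windows lay on H3K27me3 in 17 of 35 cases (48.6%, 31.4 to 66.0), against 44.3% of the list, and on PCGF1 in 3 of 35 (8.57%, 1.80 to 23.1), against 5.85%. Both were near the background. Peaks wider than 10 kb made up 3 of 35 (8.57%, 1.80 to 23.1), an interval that takes in the 1.86% of the list. At Meis1 lay 2 of the 3, and without that window 1 of 20 was so wide. A -log10 q of at least 5 was reached by 7 of 35 (20%, 8.44 to 36.9) against 9.96% of the list: 3 at Meis1, 2 at Ebf1 and 1 each at Id2 and Sfpi1. Of these 7, 3 lay on H3K27me3, namely the pair wider than 10 kb at Meis1 and the 7372 bp peak at Id2, and the other 4 were peaks of 220 to 1695 bp off it. The share on H3K27me3 among list peaks that reached this limit is not given here, so this split is a description. The Gata3 peak, at 4.92, was just under this limit. The median fold was 3.46, against 3.22 over the list. Among the 18 peaks off H3K27me3 the median fold was 3.48 and the median width 766.5 bp, against 3.25 and 594.5 bp for such peaks of the list. The 17 on H3K27me3 had a median fold of 3.20 and a median width of 1783 bp, against 3.20 and 1170 bp.

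**Figure D4:**
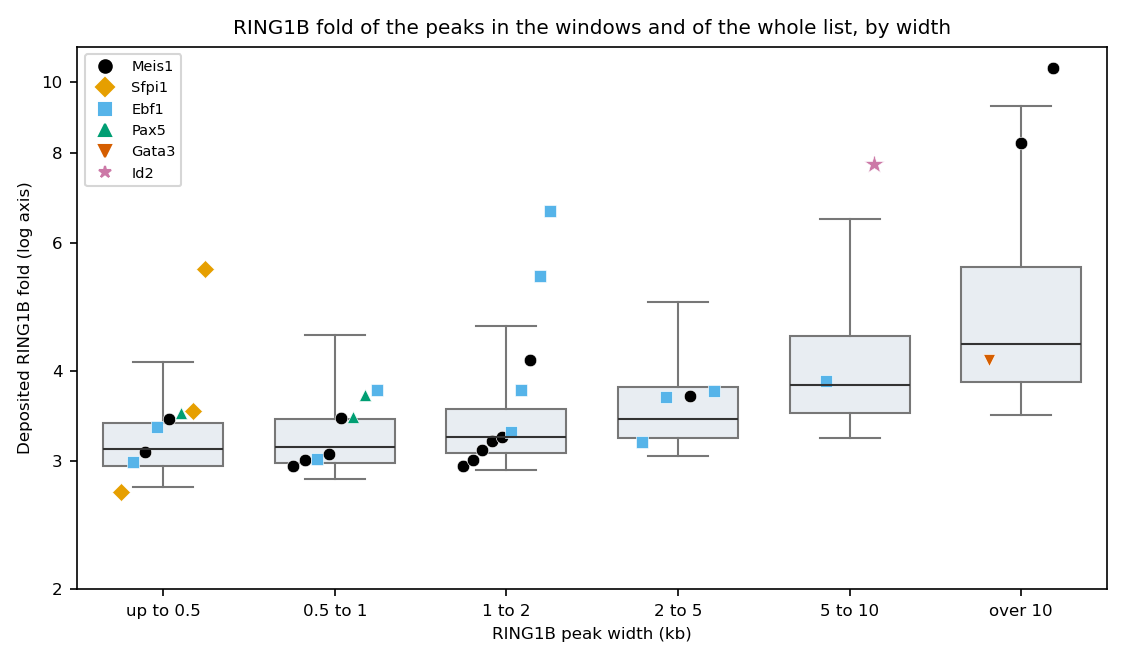
Deposited RING1B fold (log axis) of the 35 peaks in the windows (symbols) by width class, over boxes for the whole RING1B list (box 25th to 75th percentile, line median, whiskers 5th to 95th percentile). The peaks above the whiskers are the Sfpi1 peak of fold 5.53, the Ebf1 peaks of fold 6.65 and 5.41, the Id2 peak of fold 7.72 and the Meis1 peak of fold 10.5.

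H3K27me3 regions of the windows met RING1B in 23 of 85 cases (27.1%, 18.0 to 37.8), against 5.57% of the list. That interval covers counting error only, and neighbouring regions are not independent. Of the 23, 16 were at Meis1 and 5 at Ebf1, with 1 each at Gata3 and Id2. The Meis1 RING1B peak of fold 10.5 alone held 6 of them, and that of fold 8.26 held 4. Without Meis1 the share was 11.5% (7 of 61). No interval is given for that share, so whether it differs from the list was not tested. Regions on RING1B had a median height of 98.2 (53.1 to 219) and a median width of 5050 bp, and the 62 regions off RING1B a median height of 64.7 (41.1 to 121.2) and a median width of 2120 bp. Over the list the median heights were 103.3 on RING1B and 67.4 off it, and the median widths 6385 and 1750 bp. Regions on RING1B were thus taller over the whole list too, and the list share on RING1B among its tallest regions is not given here. Of the 7 regions taller than the 95th percentile of the list (120.0), 6 lay on RING1B: 3 at Meis1 and 1 each at Gata3, Id2 and Ebf1. The other, of height 121.2 in the Ebf1 window, was 1192 bp from a RING1B peak.

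**Figure D5:**
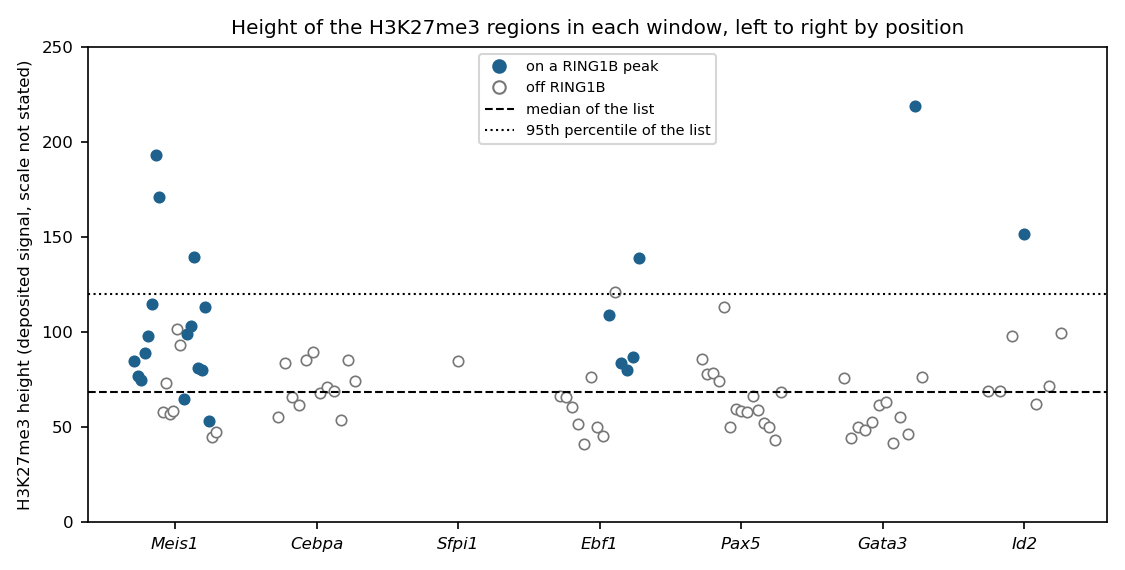
Height of each H3K27me3 region (deposited signal, scale not stated), in order of position within each window; filled points touch a RING1B peak and open points do not. Dashed and dotted lines mark the median (68.5) and the 95th percentile (120.0) of the whole list, and the regions above 120.0 lie at Meis1, Ebf1, Gata3 and Id2.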

How the data were processed

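PCGF1 (FLAG), RING1B and H3K27me3 were mapped in 2 IdHP libraries each, and the labels name the pair behind each list. The submitters' processing notes name Picard, Bowtie2 and SAMtools 1.6.0 beside builds mm9 and dm3, without their roles. Which caller, threshold and control were used, and how a pair was combined, is not given in the sources used here. The authors deposited, for PCGF1 and RING1B, broadPeak lists with a fold (ratio over background), a -log10 q and a score, and for H3K27me3 a height (signal) of unstated scale, a log p read as -log10 p, and other columns such as the width above the cutoff. Read depth is unknown.

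Rows overlapping a window by at least 1 bp were members. Overlaps needed 1 bp, intervals are exact binomial (Clopper-Pearson, 95%), and percentiles are shares of the same list with a lower value. Rows of all 3 lists were read as starting 1 base after their listed start. Starts of PCGF1 and RING1B peaks are given as read, and those of H3K27me3 regions as listed. Python 3.11.15, pandas 2.3.3 and scipy 1.17.1 were used, and the interval code was tested on simulated data. The windows, members and gene lists were chosen with earlier results of these data known, so no test was made. In each window all PCGF1 peaks, the RING1B peaks that were widest, had the highest fold or held PCGF1, and the tallest and widest H3K27me3 regions were to be named; other peaks were named after their values were seen. Alternatives were an overlap of 50% of the peak, a distance of 1 kb counted as overlap, only the stronger 50% of each list, a -log10 q of at least 5, windows widened by 50 kb on both sides and, added later, single windows left out.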

Additional observations from a re-analysis of the deposited data

How the results depend on the processing

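Alternatives were run for 3 overlap shares, 3 counts of windows and 2 covered shares. The share of PCGF1 peaks on RING1B ran from 66.7% to 85.7% and that on H3K27me3 from 33.3% to 80%, but with 7 peaks the intervals are too wide for this to speak of stability. The share of RING1B peaks on H3K27me3 was 34.3% with 50% of the peak covered, 34.8% with the stronger 50% of both lists, 60% within 1 kb and 40% without Meis1. H3K27me3 regions on RING1B, recomputed only without single windows, fell to 11.5% without Meis1, outside the interval reported. With a -log10 q of at least 5 no window held a PCGF1 peak, and so none held all 3 lists on 1 site (0 of 7 for both). That limit keeps 64 PCGF1 peaks of the list, and 4 of the 7 windows still held RING1B. With the stronger 50% of each list, 3 windows held PCGF1, 6 held RING1B and 2 held all 3 lists on 1 site. With widened windows these counts were 4, 7 and 2. The H3K27me3 cover of the windows was 15.4% with the taller 50% of regions, 21.2% with widened windows and 18.0% without Meis1. RING1B cover was 7.89% with the stronger 50% of peaks, 6.76% with widened windows and 4.11% without Meis1. Fewer peaks, other bases or fewer windows enter these by construction. Shares of the whole lists, of bins or of the span under the changed rules and limits are not given here. Whether the windows stayed near their background under these alternatives was therefore not tested. With unknown depth, a missing peak does not show that a protein was absent.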

Other observations

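The 50 kb on either side of each window, examined as an alternative, held no PCGF1 peak at any of the 7 loci. RING1B peaks were present beside all 7, from 1 at Cebpa, Gata3 and Pax5 to 5 at Ebf1. Of consecutive 100 kb bins, 6.55% held a PCGF1 peak and 33.7% a RING1B peak, so flanks without PCGF1 are the usual state. Like the windows, the flanks were not picked at random, and their counts are a description. At Cebpa the flank held the only RING1B peak within that distance, 1394 bp wide with a fold of 3.14, 7.67 kb from the window. The highest fold in a flank was 4.20, in a peak of 2110 bp that lay 43.6 kb from the Id2 window. At Sfpi1 the strongest RING1B peak in the flank was again short, 184 bp wide with a fold of 3.96.

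Tall H3K27me3 regions stood beside 2 of the 3 windows (Cebpa, Pax5 and Sfpi1) that had none above the 95th percentile inside. The tallest beside Pax5 had a height of 178.8, above 99.3% of the list, 47.1 kb from the window. The tallest beside Cebpa had a height of 161.8, above 98.8%, at 33.1 kb. Among the other windows, Gata3 also had a region above the 95th percentile beside it (height 122.95, above 95.5%), and Id2, Meis1 and Ebf1 did not. The share of such flanks along the chromosomes is not given here.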
